A study of Mus musculus with 4 samples.

Results

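The miR-15/16 family of miRNAs, with its relatives miR-195a and miR-497a, was measured in small RNA libraries of stroma around the wolffian duct of mouse embryos. Members were taken by name from a table of length-scaled abundances (TPM), with 1 row per gene. All 6 genes sought had a row, out of 643 miRNA genes and 2976 rows in all: Mir15a (gene ID 387174), Mir16-1 (387134), Mir15b (387175), Mir16-2 (723949), Mir195a (387190) and Mir497 (751537), the gene of miR-497a. The 4 libraries formed 1 group. The embryos were of the CD1 strain at stage E10.5 and carried Tbx18-Cre with CAG-tdTomato, so the red fluorescent reporter marked every cell in which the Tbx18 promoter had driven the Cre recombinase, and the descendants of such cells. Cells were collected by flow sorting. There was no second condition. Nothing in the labels states if each library had its own embryos, so a spread or p here is between libraries and may be purely technical. In bulk RNA, fewer cells of a type and less RNA per cell cannot be told apart.

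A miRNA is cut from a hairpin precursor and guides the silencing complex to messenger RNAs that pair with its seed, bases 2 to 8 from the 5′ end. The miR-15/16 family is known as a brake on the cell cycle: its targets include D-type and E-type cyclins and the survival gene Bcl2. Loss of the locus of miR-15a and miR-16-1 is a known event in chronic lymphocytic leukaemia, and miR-195 is known for restraining the division of heart muscle cells after birth.

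The mature 5p sequences from RefSeq (GRCm38.p6) are shown because the shared seed, in capitals, is what makes these genes a family, and because the 2 miR-16 genes give the same mature sequence.
miR-15a-5p: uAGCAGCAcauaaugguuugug
miR-15b-5p: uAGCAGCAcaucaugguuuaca
miR-16-5p: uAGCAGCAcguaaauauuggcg
miR-195a-5p: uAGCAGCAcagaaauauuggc
miR-497a-5p: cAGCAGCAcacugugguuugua
miR-322-5p: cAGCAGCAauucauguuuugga
miR-503-5p: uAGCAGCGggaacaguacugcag
The 6 genes gave 5 distinct 5p sequences, all with the seed AGCAGCA. The last pair of sequences are X-linked relatives, of which miR-503 shares the seed only up to base 7. Over all compared bases, seed included, miR-16 and miR-195a were the closest, with 2 different bases of 21, both outside the seed. miR-15a and miR-15b differed at 4 of 22, whereas miR-16 and miR-497a differed at 11 of 22.

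The members lie at 3 loci of paired hairpins in GRCm38. Mir15b (chromosome 3, 69009772 to 69009835, plus strand) and Mir16-2 (69009902 to 69009996, plus strand) are 66 bases apart within introns of Smc4, which encodes a condensin subunit. Mir16-1 (chromosome 14, 61631880 to 61631972, minus strand) and Mir15a (61632027 to 61632110, minus strand) are 54 bases apart within the long non-coding RNA Dleu2. Mir15a is intronic in the GENCODE vM21 annotation, and Mir16-1 overlaps an exon of a Dleu2 transcript by 13 bases. Mir497 (chromosome 11, 70234717 to 70234800, plus strand) and Mir195a (70235042 to 70235135, plus strand) are 241 bases apart. Mir195a lies outside other annotated genes, and Mir497 lies wholly opposite Mir497b on the minus strand, which has no row.

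The hairpins of the 2 miR-16 genes and of Mir15b are shown with the 5p arm in capitals, because each gene has its own row, with values scaled by hairpin length.
Mir16-1: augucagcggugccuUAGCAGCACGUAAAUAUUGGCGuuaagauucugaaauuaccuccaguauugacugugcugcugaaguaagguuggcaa
Mir16-2: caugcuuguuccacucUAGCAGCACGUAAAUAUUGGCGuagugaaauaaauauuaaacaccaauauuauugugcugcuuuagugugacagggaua
Mir15b: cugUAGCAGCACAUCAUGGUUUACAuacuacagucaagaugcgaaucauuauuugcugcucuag
The 3p arms of the miR-16 genes, miR-16-1-3p and miR-16-2-3p, differ at 10 of 22 bases, but reads of the 5p arm fit both hairpins. The split between Mir16-1 and Mir16-2 is therefore uncertain. Their total is uncertain too, because the sources used here do not state if such reads were kept. The Mir15b hairpin, at 64 nt, is shorter than that of Mir16-2, at 95 nt, and the same number of reads gives it a higher TPM.

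Depth set the precision of these values. The miRNA genes held 146255 reads in library 4 and 883201 to 1087240 in the others, worked out from the TPM values. Library 4 also differed from the others in its makeup, as library 3 did in neural markers. Its miRNA genes took 70.3% of the summed TPM of the table, against 86.0% to 90.7% in libraries 1 to 3. The stromal genes Mir199a-1, Mir199a-2, Mir199b and Mir214 together took 0.779% of miRNA TPM in library 4 and 1.39% to 3.12% in the others, with Mir199a-2 and Mir214 at 0 in all. Mir122 of liver took 0.875% in library 4 against 0.0359% to 0.216%, and endothelial Mir126a 1.53% against 0.659% to 0.856%. The 6 epithelial markers, none at 0 in all libraries, took 0.265% in library 4. This was close to the 0.255% of library 3, with libraries 1 and 2 at 0.174% and 0.0707%. The 6 striated muscle markers took 1.37% in library 4 against 0.198% to 0.805%, with Mir1a-2 at 0. White blood cell markers took 0.0220% against 0.00561% to 0.0149%, with Mir223 at 0 throughout. The library 4 value lay within the range of the others for smooth muscle Mir143 and Mir145a (1.24%, others 0.955% to 1.71%), for the neural markers (0.598%, others 0.0575% to 4.99%, with Mir124a-1 at 0) and for the erythroid markers (0.00550%, others 0.00134% to 0.0192%, with Mir486 at 0). Library 3 stood apart for the neural markers, at 4.99% against 0.825%, 0.0575% and 0.598% in libraries 1, 2 and 4. Mir9-3 led these markers, at 2860.5 TPM in library 3. Tbx18 and the reporter were not analysed here.

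The family was listed at a low level, with most of its TPM in the 2 miR-16 genes and Mir15b. Which miR-16 gene stands higher rests on the uncertain split of their reads. If reads that fit both miR-16 hairpins were left out, the listed level, ranks and share of the family would be too low. This was not tested. The family sum was 34.0, 55.7, 71.0 and 18.7 TPM in libraries 1 to 4, or 44.9 ± 23.1 TPM (SD, n = 4). Library 4 was lowest and library 3 highest, a 3.80-fold range. The summed TPM of all miRNA genes also differed, at 42494, 65478, 61708 and 16399 TPM in libraries 1 to 4. All rows of the table together held 4.94%, 7.22%, 7.11% and 2.33% of the total to which TPM is scaled. TPM levels are thus not directly comparable between libraries. As a share of summed miRNA TPM, however, the family took 0.0801%, 0.0851%, 0.115% and 0.114%, or 0.0985% ± 0.0185 (SD, n = 4). On this scale the range was 1.44-fold, and library 4 was no longer low. Without library 4 the means were 53.6 TPM and 0.0934%. Counted in reads, the family held 753, 967, 1116 and 170 reads.

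As listed, Mir16-2 was the highest member by mean, at 13.3, 26.6, 24.5 and 4.69 TPM in libraries 1 to 4 (17.3 ± 10.2 TPM, SD, n = 4). It ranked 136th among the miRNA genes, after Mir3068 at 19.0 and Mir299a at 17.5 TPM and before Mir23a at 16.9 and Mirlet7f-1 at 16.6 TPM. Each of these differences was smaller than the SD of Mir16-2. With the reads of the 2 miR-16 genes exchanged, a case added after the data were seen, Mir16-1 would stand at 17.6 and Mir16-2 at 8.52 TPM on average. Mir15b followed at 7.88, 17.7, 27.8 and 4.20 TPM (14.4 ± 10.6 TPM, rank 147). Mir15b was the only member whose TPM lay above that of Mir16-2 in library 3. In library 4 the only such member was Mir15a, at 4.97 against 4.69 TPM.

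Mir16-1 stood at 9.38, 7.32, 13.9 and 4.19 TPM (8.70 ± 4.08 TPM, SD, n = 4; rank 175). It had the smallest coefficient of variation (CV, the SD over the mean) of the 6 members in TPM, at 46.9%, against a median of 60.3% over the 273 miRNA genes with a mean of at least 1 TPM. Mir195a was at 1.29, 1.97, 1.72 and 0.395 TPM (1.34 ± 0.691 TPM, rank 259), and Mir497 at 0.838, 1.51, 1.99 and 0.221 TPM (1.14 ± 0.772 TPM, rank 269). Both chromosome 11 genes were low in every library. In library 4 Mir195a rested on 4 reads, with an exact 95% Poisson interval of 0.108 to 1.01 TPM. Mir497 rested on 2 reads there, with an interval of 0.0267 to 0.798 TPM. These intervals cover counting error only.

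Mir15a had a different profile from the other 5 members. Its level was 1.40, 0.637, 1.12 and 4.97 TPM in libraries 1 to 4 (2.03 ± 1.98 TPM, SD, n = 4; rank 239), and 1.05 TPM on average without library 4. Library 4 was its highest, whereas the other 5 members were at their lowest TPM there. Summed miRNA TPM was also lowest in library 4, at 16399 against 42494 to 65478 TPM in the others. A lowest TPM there is therefore not particular to these members, and the share of all miRNA genes lowest there was not counted. Of the 273 miRNA genes with a mean of at least 1 TPM, 14 (5.13%) had their highest TPM in library 4. By share of miRNA TPM, both genes of the Dleu2 locus, Mir15a and Mir16-1, were highest in library 4, beside 33.0% of these genes.

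**Figure D1:**
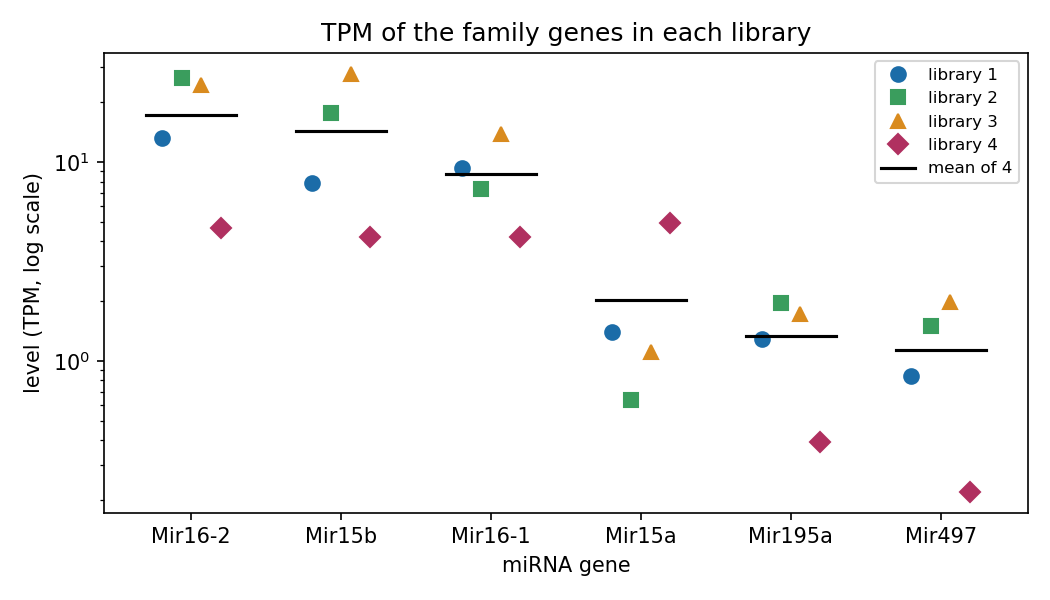
TPM on a log scale (vertical axis) of the 6 family genes (horizontal axis) in each of 4 libraries, with symbols for libraries and a bar for the mean. Mir16-2, Mir15b and Mir16-1 lie between 4.19 and 27.8 TPM, and the library 4 point is the lowest for every gene except Mir15a, where it is the highest at 4.97 TPM.

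Of the 6 members, Mir16-2, Mir15b and Mir16-1 reached at least 1 TPM in all 4 libraries, beside 33.1% of all 643 miRNA genes. Mir15a and Mir195a did so in 3 libraries and Mir497 in 2. The count of 3 depended on the limit set: all 6 members were above 0 in every library, beside 49.6% of miRNA genes, all 6 were at 0.1 TPM or more, beside 47.1%, and 0 were at 10 TPM or more in every library, beside 17.6%. In the order of means, each neighbouring pair changed places in at least 1 library. Mir16-2 was above Mir15b in 3 of 4 libraries, Mir15b above Mir16-1 in 3, Mir16-1 above Mir15a in 3, Mir15a above Mir195a in 2 and Mir195a above Mir497 in 3.

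**Figure D2:**
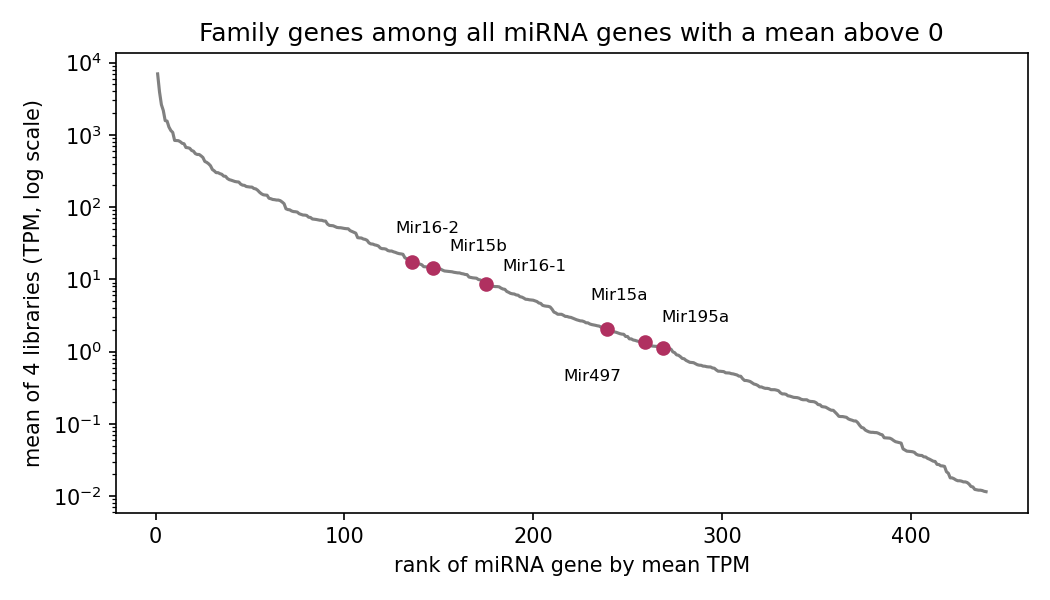
Mean TPM over 4 libraries on a log scale (vertical axis) of miRNA genes with a mean above 0, ordered by rank (horizontal axis), with the 6 family genes as points. Members fall between rank 136 (Mir16-2, 17.3 TPM) and rank 269 (Mir497, 1.14 TPM), in the middle of the curve.

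Shares of miRNA TPM take out the differences in total between libraries, and 5 of the 6 members, all but Mir15a, became more even on that scale. This was not particular to the family. The median CV over the 273 miRNA genes with a mean of at least 1 TPM also fell, from 60.3% in TPM to 41.5% in share. Mir16-2 took 0.0312%, 0.0406%, 0.0397% and 0.0286% in libraries 1 to 4, with a CV of 17.2% in place of 59.2% in TPM. Mir195a took 0.00303%, 0.00300%, 0.00279% and 0.00241%, a CV of 10.3% against 51.5%. Only 2 of the 273 miRNA genes with a mean of at least 1 TPM had a smaller CV of share than Mir195a, and the median over these genes was 41.5%. With 4 reads in library 4, its share of miRNA reads there had a 95% Wilson interval of 0.00106% to 0.00703%, wider than the differences between its shares.

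Mir15b took 0.0185%, 0.0270%, 0.0450% and 0.0256%, with a CV of 38.8% and library 3 highest. Mir16-1 took 0.0221%, 0.0112%, 0.0225% and 0.0255%, with a CV of 30.9% and library 2 lowest. Mir497 took 0.00197%, 0.00230%, 0.00322% and 0.00135%, a CV of 35.4%. The shares of these 3 genes thus varied by 2.28-fold to 2.43-fold over the libraries. Library 3 was highest for Mir15b and Mir497, and library 4 for Mir16-1.

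Summed over both copies, miR-16 had similar shares in the 4 libraries, with library 3 highest. This sum was examined after its values were seen. Counted in reads it does not depend on how those assigned to either copy were split, and it then took 0.0617%, 0.0606%, 0.0709% and 0.0615% of miRNA reads. In TPM the sum was 22.6, 33.9, 38.4 and 8.88 TPM in libraries 1 to 4. As a share it was 0.0533%, 0.0518%, 0.0622% and 0.0541% of miRNA TPM, or 0.0553% ± 0.00469 (SD, n = 4), a CV of 8.47%. With 90 reads in library 4, the share of reads there had a 95% Wilson interval of 0.0501% to 0.0756%, wider than the differences between the shares. The intervals of library 2 (0.0562% to 0.0654%) and library 3 (0.0659% to 0.0764%) did not overlap. The read split between the copies was less even, with Mir16-2 holding 59.1% of 545 reads in library 1 (95% Wilson interval 54.9% to 63.1%), 78.8% of 659 in library 2 (75.5% to 81.7%), 64.3% of 694 in library 3 (60.6% to 67.7%) and 53.3% of 90 in library 4 (43.1% to 63.3%). For this split, the interval of library 2 did not overlap those of the others.

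Mir15a was the least even member in share, at 0.00329%, 0.000973%, 0.00181% and 0.0303% of miRNA TPM in libraries 1 to 4, a 31.1-fold range and a CV of 156%. In reads it held 30, 11 and 18 in libraries 1 to 3 and 45 in library 4, although library 4 was the shallowest. Its share of miRNA reads in library 4 was 15.4 times that of libraries 1 to 3 pooled (exact 95% interval 10.2 to 23.1, counting error only). The other 5 members together stood at 0.908 times on the same scale (0.752 to 1.09). Of the 273 miRNA genes with a mean of at least 1 TPM, 7 (2.56%) had a ratio at least as high as Mir15a, which is among the 7. This ratio compares these libraries, was computed after the values were seen, and has no replicate check. The part that the makeup of library 4, including its high Mir122 and Mir126a, has in this was not tested.

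**Figure D3:**
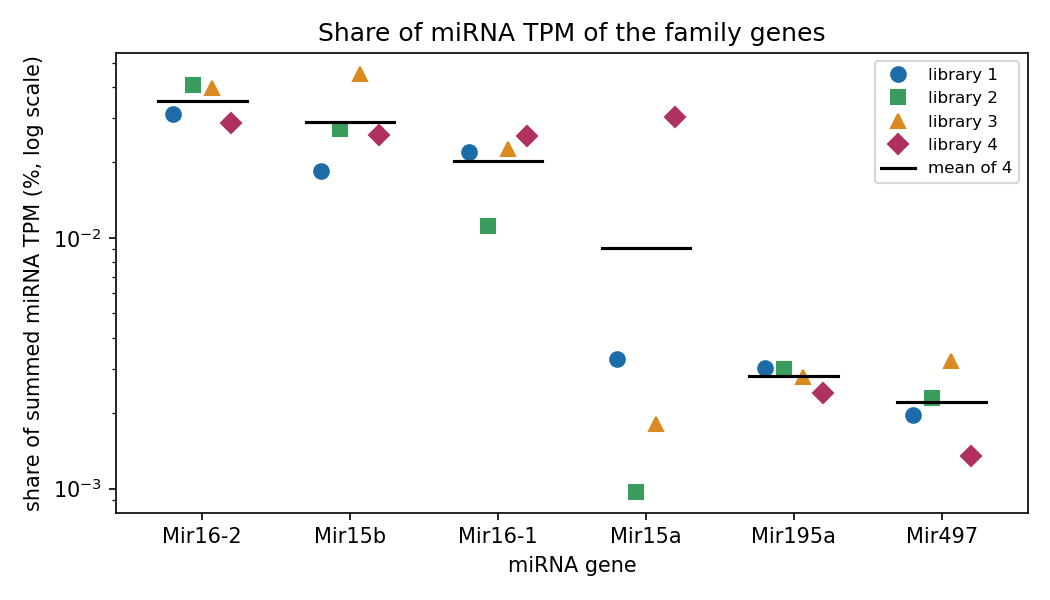
Share of the summed miRNA TPM in percent, on a log scale (vertical axis), of the 6 family genes (horizontal axis) in 4 libraries, with a bar for the mean. Mir195a points lie between 0.00241% and 0.00303%, whereas Mir15a runs from 0.000973% in library 2 to 0.0303% in library 4.

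Genes of 1 locus are thought to be cut from 1 primary transcript, so their ratios within a library were compared as the log2 ratio of TPM + 1. In all, 8 ratios had values on both sides, each tested by flipping signs over 4 libraries (an exact permutation test, two-sided), whose smallest possible p is 0.13. A threshold of 0.05 was thus out of reach, and adjusted p-values (Benjamini-Hochberg over 8) were 0.286 or 0.375.

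At the Smc4 locus the ratio of Mir15b to Mir16-2 was -0.68, -0.56, 0.18 and -0.13 in libraries 1 to 4, a mean of -0.30 ± 0.40 (SD, n = 4; exact permutation p = 0.375), and lower in 3 of 4. The mean ran from -0.46 without library 3 to -0.17 without library 1. Counted in reads, Mir15b held 28.6%, 31.0%, 43.3% and 37.7% of the reads of the pair, below Mir16-2 in all 4 libraries. On that scale, which is not divided by hairpin length, the mean log2 ratio was -0.89, and with both miR-16 copies summed in TPM it was -0.92. With the reads of the miR-16 genes exchanged it turned to 0.50.

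At the Dleu2 locus Mir15a was far below Mir16-1 in 3 libraries. The log2 ratio was -2.11, -2.35 and -2.82 in libraries 1 to 3 and 0.20 in library 4, a mean of -1.77 ± 1.35 (SD, n = 4; exact permutation p = 0.25), and -2.43 without library 4. Mir15a held 11.9% of 253 reads of this pair in library 1 (95% Wilson interval 8.43% to 16.4%), 7.28% of 151 in library 2 (4.12% to 12.6%), 6.77% of 266 in library 3 (4.32% to 10.4%) and 51.7% of 87 in library 4 (41.4% to 61.9%). The last interval lies above the other three, which overlap one another. Dleu2 itself was listed at 0, 0.00574, 0.00924 and 0.00548 TPM. These are length-scaled values from small RNA libraries, so they do not measure the level of the long Dleu2 transcript. At the chromosome 11 locus the ratio of Mir195a to Mir497 was 1.54, 1.31, 0.866 and 1.79 times in TPM with no pseudocount. The log2 ratio of TPM + 1, which a pseudocount shrinks at levels near 1 TPM, was 0.32, 0.24, -0.14 and 0.19, a mean of 0.15 ± 0.20 (SD, n = 4; exact permutation p = 0.25), or 0.25 without library 3. It was 0.34 with a pseudocount of 0.1 TPM and 0.49 in reads not divided by hairpin length.

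The paralogous genes of different loci were set side by side in the same way. Mir15b exceeded Mir15a by 1.89, 3.51 and 3.77 log2 units in libraries 1 to 3 and was at -0.20 in library 4, a mean of 2.24 ± 1.83 (SD, n = 4; exact permutation p = 0.25), or 3.06 without library 4. In TPM with no pseudocount these were 5.64, 27.8 and 24.9 times and 0.846 times. Mir16-2 was above Mir16-1 in 4 of 4 libraries, by 0.46, 1.73, 0.77 and 0.13 (mean 0.77 ± 0.69, SD, n = 4; exact permutation p = 0.13), with 0.45 without library 2. This ratio carries the uncertain split of miR-16 reads, and exchanged it is -0.83.

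By locus, with miR-16 reads split as listed, the Smc4 genes together held 62.1%, 79.5%, 73.6% and 47.6% of the family's TPM in libraries 1 to 4. The Dleu2 genes held 31.7%, 14.3%, 21.2% and 49.1%, and the chromosome 11 genes 6.25%, 6.23%, 5.22% and 3.30%. The Smc4 locus exceeded the Dleu2 locus by 1.24 ± 1.03 log2 units (SD, n = 4; exact permutation p = 0.25), at 0.91, 2.34, 1.73 and -0.04, and by 1.66 without library 4. This difference rested on the split: with the reads of the miR-16 genes exchanged, the Smc4 genes would hold 50.0%, 44.3%, 58.1% and 44.5% of the family and the Dleu2 genes 43.8%, 49.5%, 36.7% and 52.2%, a mean ratio of 0.12 ± 0.39 (SD, n = 4; exact permutation p = 0.75). Against the chromosome 11 locus it was higher in 4 of 4 libraries, by 3.07 ± 0.42 (SD, n = 4; exact permutation p = 0.13). In TPM with no pseudocount this was 9.93 to 14.4 times. The Dleu2 locus was above the chromosome 11 locus in 4 of 4, by 1.83 ± 0.68 (SD, n = 4; exact permutation p = 0.13), or 5.06, 2.29, 4.05 and 14.9 times in TPM. The highest of these is library 4, where the chromosome 11 genes held 6 reads, and without it the highest was 5.06 times.

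**Figure D4:**
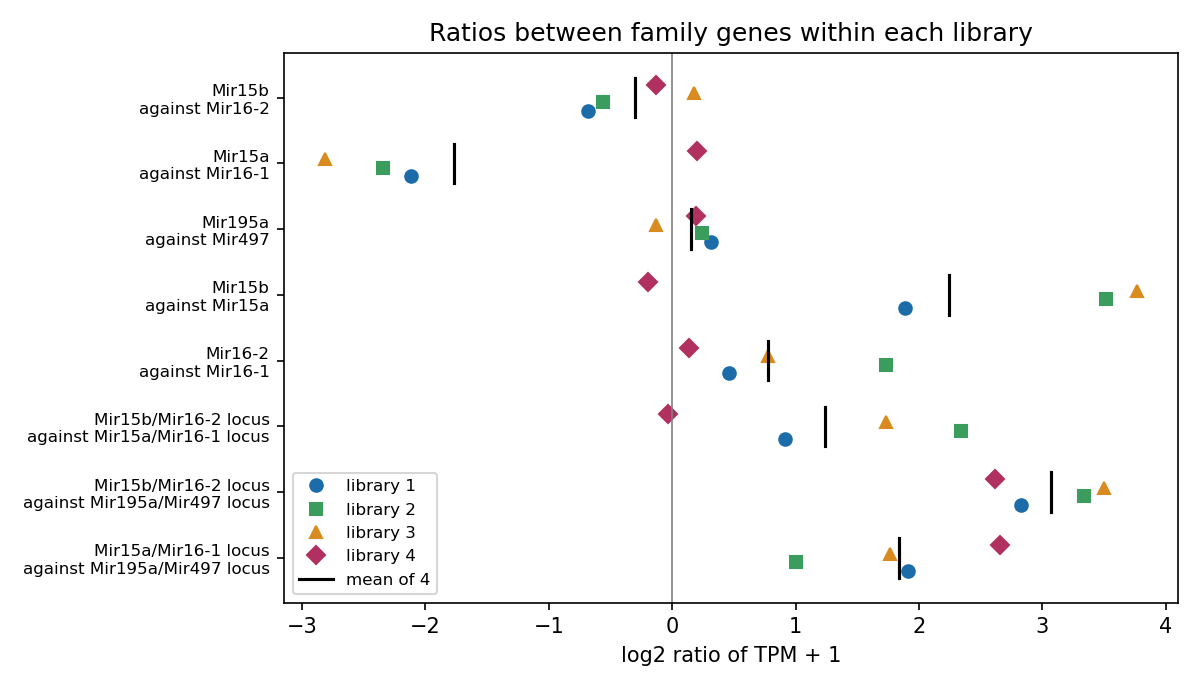
Log2 ratio of TPM + 1 (horizontal axis) for 8 pairs of family genes or loci (vertical axis) in 4 libraries, with a bar for the mean and a line at 0. The 3 ratios that involve Mir15a or its locus against Mir15b, Mir16-1 or the Smc4 locus cross 0 in library 4, while both ratios to the chromosome 11 locus are above 0 in all 4 libraries.

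The X-linked relatives Mir322 and Mir503 were listed at 0 in all 4 libraries, so no ratio to them was computed. Both overlap C430049B03Rik, a long non-coding RNA with a row of its own at 0.00349 to 0.0589 TPM, and a 0 for either miRNA is a listed value and not evidence that the miRNA was absent. The C430049B03Rik value, from small RNA libraries, likewise does not measure the level of that long transcript. In RefSeq, 12 miRNA genes have a mature sequence with AGCAGC at bases 2 to 7. Of these, 8 had a row, namely the 6 members, Mir322 and Mir503.

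Lists of other miRNAs linked to the cell cycle had higher medians than the 6 members, though for the proliferation-linked list the gap was small. A list of restraining miRNAs (let-7, miR-34, miR-449, miR-26, miR-24 and the X-linked relatives) had 25 genes with a row, of which 15 reached 1 TPM in all libraries and 4 were listed at 0 throughout, beside 33.1% and 31.6% of all 643 miRNA genes. Its median level was 13.4 TPM, against 5.36 TPM for the 6 members and 0.315 TPM for all 643 miRNA genes. It was led by Mir26a-2 at 1575 ± 925, Mirlet7c-1 at 486 ± 456 and Mirlet7a-2 at 290 ± 353 TPM (SD, n = 4). A list of proliferation-linked miRNAs (the miR-17 cluster and its paralogs, Mir221, Mir222, Mir21a, and the miR-302 and miR-290 clusters) had 30 genes with a row, of which 14 reached 1 TPM in all libraries and 8 were listed at 0 throughout, beside the same 33.1% and 31.6%. Its median was 6.90 TPM, and it was led by Mir92-2 at 1080 ± 632, Mir25 at 837 ± 504 and Mir17 at 317 ± 281 TPM (SD, n = 4). The 6 members together took 0.0801% to 0.115% of miRNA TPM, the restraining list 4.11% to 12.7% and the proliferation-linked list 4.86% to 9.24%. The medians include genes listed at 0 throughout, among them Mir24-1, Mir24-2, Mir92-1 and Mir21a, and such a 0 is not evidence of absence.

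The genes whose share varied most like the family sum were sought among 168 other miRNA genes with a mean of at least 10 TPM and no 0. Likeness was the root mean square difference of log2 shares over the 4 libraries, each gene centred on its own mean, and its median over the 168 genes was 0.56. The 5 nearest were Mir760 at 0.10, Mir495 at 0.15, Mir106b at 0.15, Mir92-2 at 0.16 and Mir342 at 0.17. Mir760, the nearest, took 0.0259%, 0.0243%, 0.0304% and 0.0328% of miRNA TPM in libraries 1 to 4. The high library 4 point of the family sum came from Mir15a. Without Mir15a the family took 0.0768%, 0.0841%, 0.113% and 0.0835%, and the 5 nearest, sought after the data were seen, were Mir92-2 at 0.11, Mir30c-2 at 0.13, Mir342 at 0.15, Mir298 at 0.16 and Mir151 at 0.16, of which Mir92-2 and Mir342 were also among the first 5. With 4 libraries, these are the nearest of many genes and no more than a description.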

How the data were processed

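Small RNA from sorted cells was made into libraries with a small RNA kit, per the labels' protocols, and the authors deposited TPM values for 4 libraries. Per the submitters' processing notes, limma was among the tools and mm10 (GRCm38) the genome build. The sources used here do not state how reads, multi-mapped ones included, were aligned and counted. Rows were joined by gene ID to RefSeq genes of GRCm38.p6, and 2541 of 2976 matched. Multiplied by gene length, 100% of nonzero miRNA values were whole multiples (within 0.01) of the smallest product in their library, and these multiples were taken as reads. No count model was fitted. Log2 ratios used a pseudocount of 1 TPM, which understates the ratios of low genes, and an exact sign-flip permutation test. The members, lists and the rule for named genes were chosen with earlier results of these data known. The rule took all members, their relatives by seed, overlapping and host rows, the 2 genes ranked on either side of the highest member, the 5 nearest profiles and the 3 highest of each list. Markers of 9 cell types were also summed. The steps were tested on simulated data. For the recovery of reads, a simulated gene was set to 1 read, so that test could not show that the smallest real value is 1 read. Alternatives covered the pseudocount, low-value limits, rescaling, hairpin length, the sum and exchange of the miR-16 copies and each library left out. Python 3.11.15, pandas 2.3.3, numpy 2.4.6 and scipy 1.17.1 were used.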

Additional observations from a re-analysis of the deposited data

Results flagged for a closer look

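The share of Mir15a in miRNA TPM was set apart in library 4 by Dixon's test for unusual values at the 95% level. It was 0.0303% there, against 0.000973% to 0.00329% in libraries 1 to 3. In TPM the same statistic was 0.825, just under the critical value. Chance sets apart about 1 in 20 groups, and 1 of the 34 values examined for the family was flagged. Among the 273 miRNA genes with a mean of at least 1 TPM, 36 (13.2%) had a library set apart in share. The library 4 value rests on 45 reads of Mir15a.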

How the results depend on the processing

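All 8 ratios kept the sign of their mean under pseudocounts of 0.1 and 10 TPM, in reads not divided by hairpin length, without each library in turn and, for the 2 ratios concerned, with both miR-16 copies summed (added after seeing the data). With the reads of the miR-16 copies exchanged, also added then, Mir16-2 to Mir16-1 turned to -0.83, by construction of the exchange. Mir15b to Mir16-2 turned to 0.50, at -0.20, 1.20, 0.98 and 0.03 in libraries 1 to 4. The Smc4 to the Dleu2 locus fell to 0.12. No p could pass 0.05 in any of them. Sizes depended on the pseudocount: with 10 TPM the ratio of Mir15a to Mir16-1 was -0.62, Mir15b to Mir15a 0.93, Mir16-2 to Mir16-1 0.48, Mir15b to Mir16-2 -0.17, Mir195a to Mir497 0.03, and the Smc4 and Dleu2 loci to the chromosome 11 locus 1.60 and 0.73. With 0.1 TPM, Mir195a to Mir497 was 0.34, and in reads 0.49. With both miR-16 copies summed, Mir15a lay at -3.16 to miR-16. The count of members detected was 3 at 1 TPM, 6 at 0.1 TPM, 6 with no lower limit than above 0, 0 at 10 TPM, and 3 to 4 without 1 library. The family sum averaged 36.1 to 53.6 TPM and its share 0.0930% to 0.105% without 1 library. Rescaled to equal miRNA totals, a further added alternative, the mean of Mir15a was 4.23 TPM in place of 2.03, by the weight that rescaling gives library 4. No paired analysis was possible because the libraries form 1 group. Depth limits Mir195a and Mir497 most, at 4 and 2 reads in library 4.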

Other observations

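The other 6 genes whose share of miRNA reads in library 4, over that of libraries 1 to 3, was at least that of Mir15a were Mir682 at 89.0, Mir5119 at 38.6, Mir881 at 34.0, Mir5110 at 32.5, Mir871 at 32.5 and Mir3068 at 18.9 times. They were named after their values were seen. Of these, Mir3068 was the most abundant, with 425 reads in library 4. The others held 53 reads or fewer in any library.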
